A study of Caenorhabditis elegans with 12 samples.

Results

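The transthyretin-related genes of *Caenorhabditis elegans* were taken here as every gene whose symbol starts with *ttr-* followed by a digit, with symbols matched from the WormBase gene identifiers. That rule gave 58 of the 46925 genes in the files, and it used no measured value. RNA of whole animals was sequenced in 12 libraries, with 3 for wild type and 3 for *sams-1* at day 1 (D1) and again at day 7 (D7) of adulthood. The replicates carry the numbers 1, 3 and 5, and the p-values below measure the spread between these libraries. According to the labels, wild-type animals received the control treatment, and the *sams-1* animals are wild type in genotype with RNAi as the treatment, whereas the study's text speaks of *sams-1(lof)* animals. All groups were fed HT115 bacteria. SAMS-1 is a synthase of S-adenosylmethionine, the methyl donor. The study compared the genotypes at each age and followed each one with age.

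Nematodes carry a large family of small proteins with a transthyretin-like domain, most of which have a signal peptide and are thought to be secreted. The domain is only distantly related to vertebrate transthyretin, the carrier of thyroid hormone and retinol in blood. Few members have a described role. TTR-52 binds phosphatidylserine on dying cells and links it to the engulfment receptor CED-1, and TTR-33 has been linked to protection of dopaminergic neurons from oxidative damage. For most other members no function is known, so they are described here by level, position and response.

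Between 3939015 and 7568375 expected counts were assigned to genes per library. The *sams-1* mRNA was not lower in the libraries labelled *sams-1*, with a log2 fold change of 0.46 at D1 (adjusted p = 0.146, edgeR) and of 1.72 at D7 (adjusted p = 0.000319, edgeR), although scaling to body wall muscle genes turned the value at D1 to -1.01 (adjusted p = 0.15, edgeR). *fat-7*, a fatty acid desaturase gene known to rise when SAMS-1 is lost, was higher in these libraries by 4.29 at D1 (adjusted p = 0.00273, edgeR) and by 3.30 at D7 (adjusted p = 8.01e-06, edgeR), and it stayed higher under every scaling tried. The groups are named throughout as labelled. Replicate 1 of *sams-1* at D1 stood apart, with Pearson correlations of log2 CPM (counts scaled to the library total) of 0.885 and 0.853 with replicates 3 and 5, which correlated with each other at 0.968. The wild-type libraries of D1 also differed from each other, with a correlation of 0.920 between replicates 1 and 5. Sperm markers summed to 139.8, 577 and 3203 TPM in wild-type replicates 1, 3 and 5 at D1. By the median of the list, germ line markers were lower in the libraries labelled *sams-1* at both ages. The medians for intestine, muscle, epidermis and cuticle, pharynx and neurons were above 0 at both ages. Some genes of these lists went the other way, and the counts are given after the genotype comparisons. In RNA of whole animals, fewer cells of a type and less RNA per cell cannot be told apart.

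The 58 genes are spread over the genome (WBcel235, Ensembl release 115), with 22 on chromosome V, 12 on X, 10 on IV, 9 on III, 3 on I and 2 on II. Their predicted proteins are short, with a median of 143 residues and 53 of the 58 between 130 and 180 residues. *ttr-14* encodes the longest protein, of 406 residues, and *ttr-57* the shortest, of 89. Many members lie next to each other: 29 are within 2000 bases of another member, in 12 runs, of which 7 are pairs and 5 hold 3 genes. Examples are *ttr-24*, *ttr-25* and *ttr-26* on chromosome V between 18555387 and 18560288, and *ttr-27*, *ttr-28* and *ttr-29* on the same chromosome between 12903550 and 12906832. The exons of 17 members overlap those of another gene. In 55 members every expected count was a whole number, and the exceptions were *ttr-3*, *ttr-16* and *ttr-44*. One further locus, the annotated pseudogene named *ttr-4*, carries no such symbol in the naming table used and was not counted.

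Together the family made up 0.0602% to 0.0935% of the counts in wild type at D1, 0.186% to 0.32% in *sams-1* at D1, 0.145% to 0.185% in wild type at D7 and 0.366% to 0.487% in *sams-1* at D7. In TPM, a unit that corrects for transcript length and so allows levels to be compared between genes, the family summed to 2464, 1370 and 1681 in wild-type replicates 1, 3 and 5 at D1. In *sams-1* at D1 the sums were 6857, 3727 and 3238. At D7 the wild type reached 5007, 3827 and 4786, and *sams-1* 8335, 10127 and 9338. The groups did not overlap at either age, and the mean sum in *sams-1* was 2.51 times that of wild type at D1 and 2.04 times at D7. With age the mean sum was 2.47 times as high in wild type and 2.01 times as high in *sams-1*. These sums rest on few genes, since the 5 most abundant members held 35.8% to 70.7% of them.

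**Figure D1:**
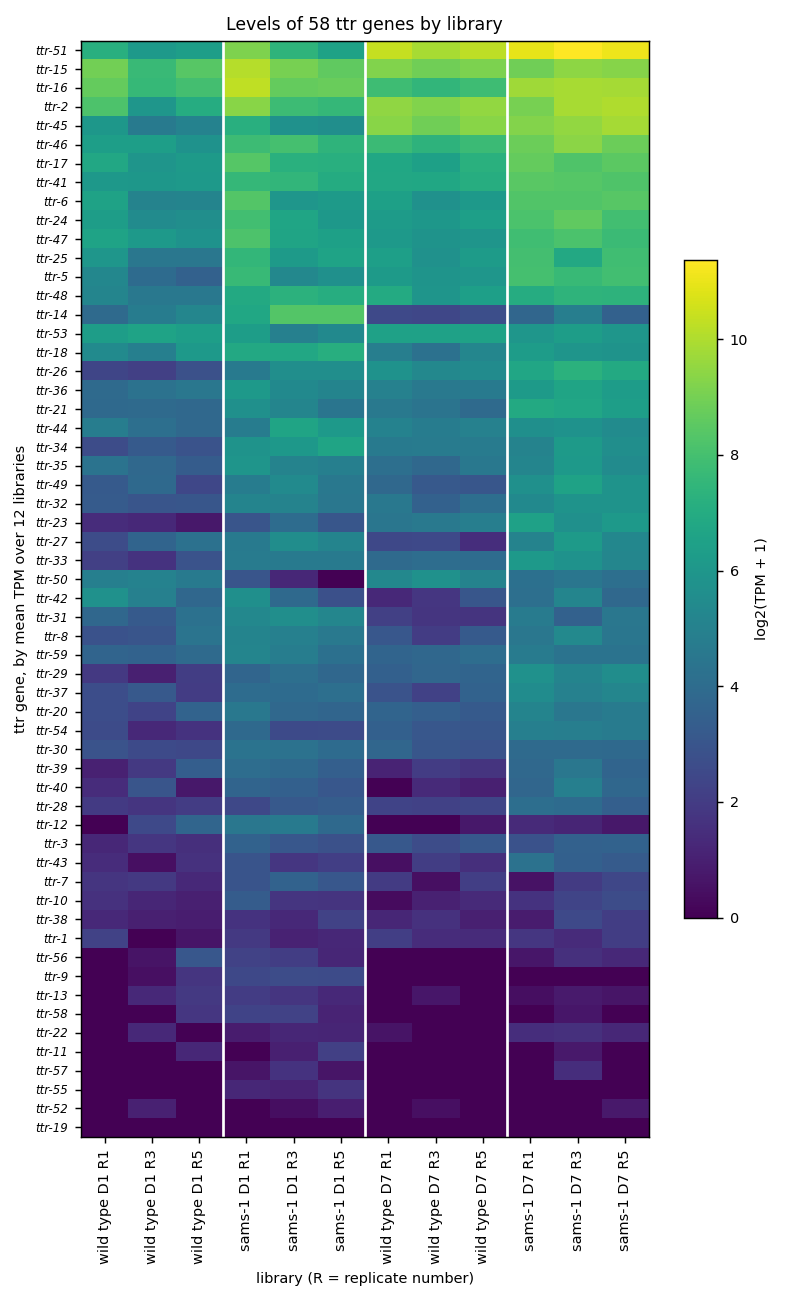
Levels of the 58 *ttr* genes (rows, ordered by mean TPM over the 12 libraries) in each library (columns, 3 per group), with colour giving log2(TPM + 1). The uppermost genes, led by *ttr-51*, are bright in every library, and *ttr-19* at the bottom has no read in any.

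Levels ranged widely within the family. A mean TPM of at least 100 over the 12 libraries was found for 14 members, of at least 10 for 38 and of at least 1 for 51. In wild type at D1, 3 members reached a mean of 100, against 14 in *sams-1* at D1, 8 in wild type at D7 and 16 in *sams-1* at D7. The most abundant member by its mean over all libraries was *ttr-51*, at 946 TPM, followed by *ttr-15* at 541, *ttr-16* at 526, *ttr-2* at 508 and *ttr-45* at 367. The order changed between groups. *ttr-15* was first in wild type at D1 with a mean of 348 TPM (SD 141, n = 3), whereas *ttr-51* was first at D7 in both genotypes, with 1158 TPM (SD 207, n = 3) in wild type and 2246 TPM (SD 361, n = 3) in *sams-1*. In *sams-1* at D1, *ttr-16* had a mean of 695 TPM (SD 469, n = 3) and *ttr-15* of 669 TPM (SD 380, n = 3), which differ by less than their spread.

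At the other end, *ttr-19* had no read in any library, and 10 members had too few reads for any test: *ttr-1*, *ttr-11*, *ttr-13*, *ttr-19*, *ttr-22*, *ttr-52*, *ttr-55*, *ttr-56*, *ttr-57* and *ttr-58*. Of these, *ttr-55* was read only in *sams-1* at D1, with counts of 4, 3 and 6 against 0 in each of the other 9 libraries. *ttr-9*, which was tested at D1 and with age, had counts of 15, 16 and 16 in *sams-1* at D1, of 0, 1 and 5 in wild type at D1, and of 0 in all 6 libraries of D7. *ttr-10* and *ttr-38* had enough reads only in the fit over all 12 libraries, with means of 2.69 and 1.98 TPM. At this depth, absence of such rare transcripts cannot be told from a low level.

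At D1, 13 of the 45 members tested were called higher in *sams-1* (adjusted p under 0.01 and at least 2-fold, edgeR). This count depended on the processing, at 1 when the libraries were scaled to body wall muscle genes, 6 with no filter on low counts, 22 with upper-quartile factors and 31 with all 12 libraries in 1 fit. The shares of all genes called higher in these settings were, in that order, 4.04%, 8.08%, 26.4% and 32%. The 13 are 28.9% of the tested members, beside 17.4% of all genes tested. None was called lower, beside 16.3% of all genes, although 1 member was lower at an unadjusted p under 0.05 and DESeq2 and limma each called 1 lower. The median log2 fold change of the family was 1.63 and that of all genes 0.58. Its fold changes were positive for 42 members and negative for 3, and 35 were higher at an unadjusted p under 0.05. Shares of all genes at an unadjusted p were not computed, here or below, so these counts cannot be set against all genes. In CPM, the 3 *sams-1* libraries lay above all 3 wild-type libraries for 36 members, or 80% against 45% of all genes, and below them for 1 member, against 30.3%. No test of these differences in share was made.

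The largest called difference at D1 was that of *ttr-34*, a gene on chromosome X (13139793 to 13140886). Its TPM was 5.28, 8.19 and 6.58 in wild type and 55.8, 65.4 and 97.7 in *sams-1*. The groups were far apart, with a log2 fold change of 3.51 (adjusted p = 0.0026, SE 0.40, edgeR). *ttr-14*, also on X (10787503 to 10789700), measured 14.3, 26.3 and 36.8 TPM in wild type and 108.9, 321 and 320.7 TPM in *sams-1*. Replicate 1 of *sams-1* was the lowest of its group but still above every wild-type library, and the log2 fold change was 3.38 (adjusted p = 0.00386, SE 0.56, edgeR). The exons of *ttr-14* overlap those of *vap-2* on the other strand, for which the difference was 1.34 on the log2 scale (adjusted p = 0.0792, edgeR).

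Next came 3 members of chromosome V. *ttr-26* was at 4.15, 3.52 and 6.12 TPM in wild type against 24.5, 47.8 and 47.8 TPM in *sams-1*, a log2 fold change of 3.20 (adjusted p = 0.00324, SE 0.49, edgeR). *ttr-23* was nearly silent in wild type, at 1.76, 1.49 and 0.65 TPM, and reached 6.87, 15.2 and 7.17 TPM in *sams-1*, with a log2 fold change of 2.89 (adjusted p = 0.00785, SE 0.63, edgeR). *ttr-29* measured 2.72, 1.03 and 3.13 TPM in wild type and 12.0, 17 and 13.1 TPM in *sams-1*, or 2.67 on the log2 scale (adjusted p = 0.0058, SE 0.53, edgeR). None of these groups overlapped. *ttr-26* and *ttr-29* lie in the runs of neighbours named above, whose other members were not called at D1, with log2 fold changes between 1.48 and 1.90.

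Among the genes with a described role, *ttr-33* was called higher at D1, from 3.50, 2.16 and 6.59 TPM in wild type to 25.5, 24.6 and 23.8 TPM in *sams-1*. The *sams-1* values were closely grouped and well above the wild type, with a log2 fold change of 2.66 (adjusted p = 0.00466, SE 0.48, edgeR). Its exons overlap those of *txt-5* on the same strand, which differed by 2.16 on the log2 scale (adjusted p = 0.0107, edgeR). Reads of these genes may be split uncertainly, although every expected count of *ttr-33* was a whole number. *ttr-48* rose from 35, 22.5 and 22.7 TPM to 117.3, 157.1 and 134.8 TPM, a log2 fold change of 2.41 (adjusted p = 0.00267, SE 0.31, edgeR). *ttr-3*, with some fractional counts, was low in both groups, at 1.37, 2.45 and 1.93 TPM in wild type and 10.8, 7.54 and 6.03 TPM in *sams-1*, and its log2 fold change was 2.08 (adjusted p = 0.00869, SE 0.47, edgeR). The other members called higher were *ttr-32*, *ttr-30*, *ttr-31*, *ttr-46* and *ttr-41*, with log2 fold changes of 2.06, 1.76, 1.72, 1.63 and 1.36. Of the members too low for a test at D7, *ttr-7* and *ttr-12* had log2 fold changes of 1.98 and 2.56 at D1 without a call. The calls at D1 depended on single libraries. Without wild-type replicate 1 or 3, or without *sams-1* replicate 3 or 5, none of the 13 passed, and at most 0.091% of all genes did. Without wild-type replicate 5 there were 5 calls, and without *sams-1* replicate 1 there were 11 higher and 2 lower (*ttr-50* and *ttr-53*). Over all genes, 9.21% were higher in the former fit, and 19.6% were higher and 25.7% lower in the latter.

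**Figure D2:**
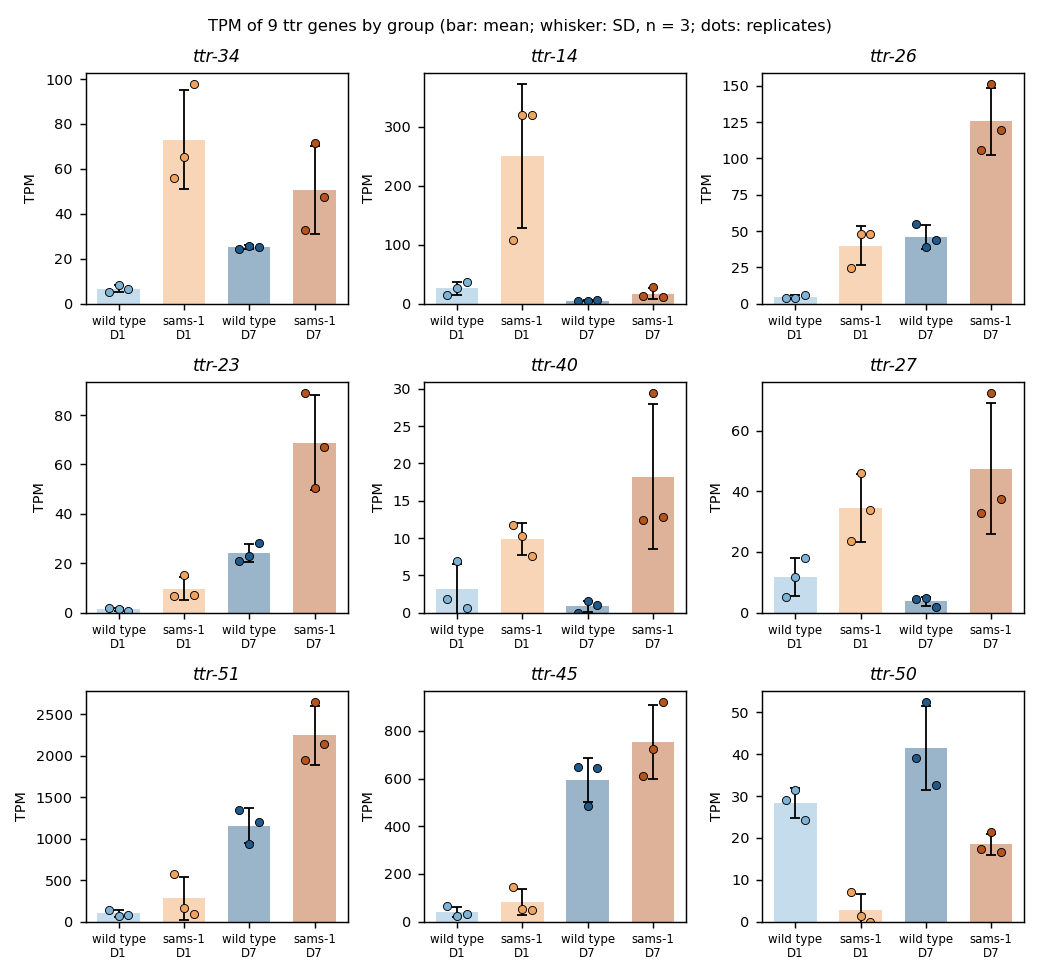
TPM of 9 *ttr* genes in the 4 groups, with bars for the mean, whiskers for the SD (n = 3) and dots for the replicates, each panel on its own axis from 0. In 8 panels the *sams-1* bar is above the wild-type bar of the same age, and for *ttr-50* it is below at both ages.

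At D7 the difference covered most of the family. Of 43 members tested, 33 were called higher in *sams-1* (edgeR), or 76.7% beside 33.4% of all genes, and scaling to body wall muscle genes left 16 of them. A single member was called lower, beside 16.4% of all genes. The median log2 fold change was 1.71 against 0.13 over all genes, and 41 of the 43 values were positive. In CPM the groups did not overlap for 37 members that were higher (86% against 40.9% of all genes) and for 2 that were lower (against 39%). Replicates were closer than at D1, with a biological coefficient of variation of 0.186 against 0.432, and leaving out any 1 library kept between 27 and 33 members higher. The libraries of D1 and D7 are different ones, and 10 of the 13 members called at D1 (76.9%) were also called at D7, where they made up 30.3% of the calls. That share is near the 76.7% of all tested members called at D7. Of the 42 members tested at both ages, 41 had the same sign.

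The largest log2 fold change at D7 was that of *ttr-40*, on chromosome V (9354521 to 9355471), which was at or near 0 in wild type, with 0, 1.53 and 0.97 TPM, and at 12.5, 29.4 and 12.8 TPM in *sams-1*. The counts behind these values were 0, 3 and 2 against 21, 46 and 27. The groups were clearly apart, at a log2 fold change of 4.41 (adjusted p = 0.000368, SE 0.72, edgeR), although the size of the change is uncertain with so few wild-type reads. Its neighbour *ttr-49*, 34 bases away, was more abundant, with 13.5, 8.14 and 7.16 TPM in wild type and 51.9, 93.0 and 55.8 TPM in *sams-1*, and a log2 fold change of 2.86 (adjusted p = 5.07e-05, SE 0.33, edgeR). *ttr-27* was at 4.5, 4.69 and 1.79 TPM in wild type and at 32.7, 72.4 and 37.4 TPM in *sams-1*, or 3.75 on the log2 scale (adjusted p = 7.22e-05, SE 0.46, edgeR). In each of these genes, replicate 3 was the highest of the *sams-1* libraries. That library was the highest of its group for 52.1% of the 48 members tested over all libraries and for 39.6% of all genes.

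*ttr-39* measured 1.16, 3.02 and 2.30 TPM in wild type at D7 and 13.4, 21.8 and 11.8 TPM in *sams-1*. Its log2 fold change was 2.89 (adjusted p = 0.00027, SE 0.45, edgeR), while *ndc-80*, a kinetochore gene whose exons it overlaps on the other strand, differed by -0.77. *ttr-31* fell into separate groups as well, at 3.46, 2.40 and 2.29 TPM against 25.2, 10.6 and 21.6 TPM, with a log2 fold change of 2.85 (adjusted p = 0.000229, SE 0.43, edgeR). For *ttr-43* the values were 0.38, 3.20 and 1.91 TPM in wild type and 18.65, 10.08 and 8.55 TPM in *sams-1*, a log2 fold change of 2.79 (adjusted p = 0.00183, SE 0.59, edgeR). It overlaps C14C10.1 on the other strand, which was higher by 4.40 on the log2 scale (adjusted p = 0.000814, edgeR). The counting strand is not given in the sources used here, so reads of such pairs cannot be told apart with certainty. Every expected count of *ttr-39* and of *ttr-43* was a whole number.

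*ttr-42* was at 1.46, 2.52 and 7.22 TPM in wild type at D7 and at 17, 35.5 and 13.1 TPM in *sams-1*, with a log2 fold change of 2.58 (adjusted p = 0.00345, SE 0.61, edgeR). At D1 the same gene had overlapping groups, with 53.1, 29.9 and 12.8 TPM in wild type and 49.6, 13.7 and 5.84 TPM in *sams-1*, and its log2 fold change of -0.48 did not pass (adjusted p = 0.598, edgeR). *ttr-21* was steady in wild type at D7, at 23, 19.9 and 14.4 TPM, and 120.6, 105.2 and 82.2 TPM in *sams-1*. Its log2 fold change was 2.49 (adjusted p = 2e-05, SE 0.24, edgeR). *ttr-33* was called at this age too, from 14.2, 15.5 and 15.2 TPM to 68.6, 54.1 and 36.8 TPM, a log2 fold change of 1.88 (adjusted p = 0.000181, SE 0.27, edgeR). The remaining 24 members called higher had log2 fold changes between 1.02 and 2.46, and a further pair, *ttr-44* (0.73) and *ttr-48* (0.84), passed the adjusted p but not the fold. Leaving out 1 library ended the call of *ttr-42* in 2 cases and that of *ttr-43* in 1 case.

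**Figure D3:**
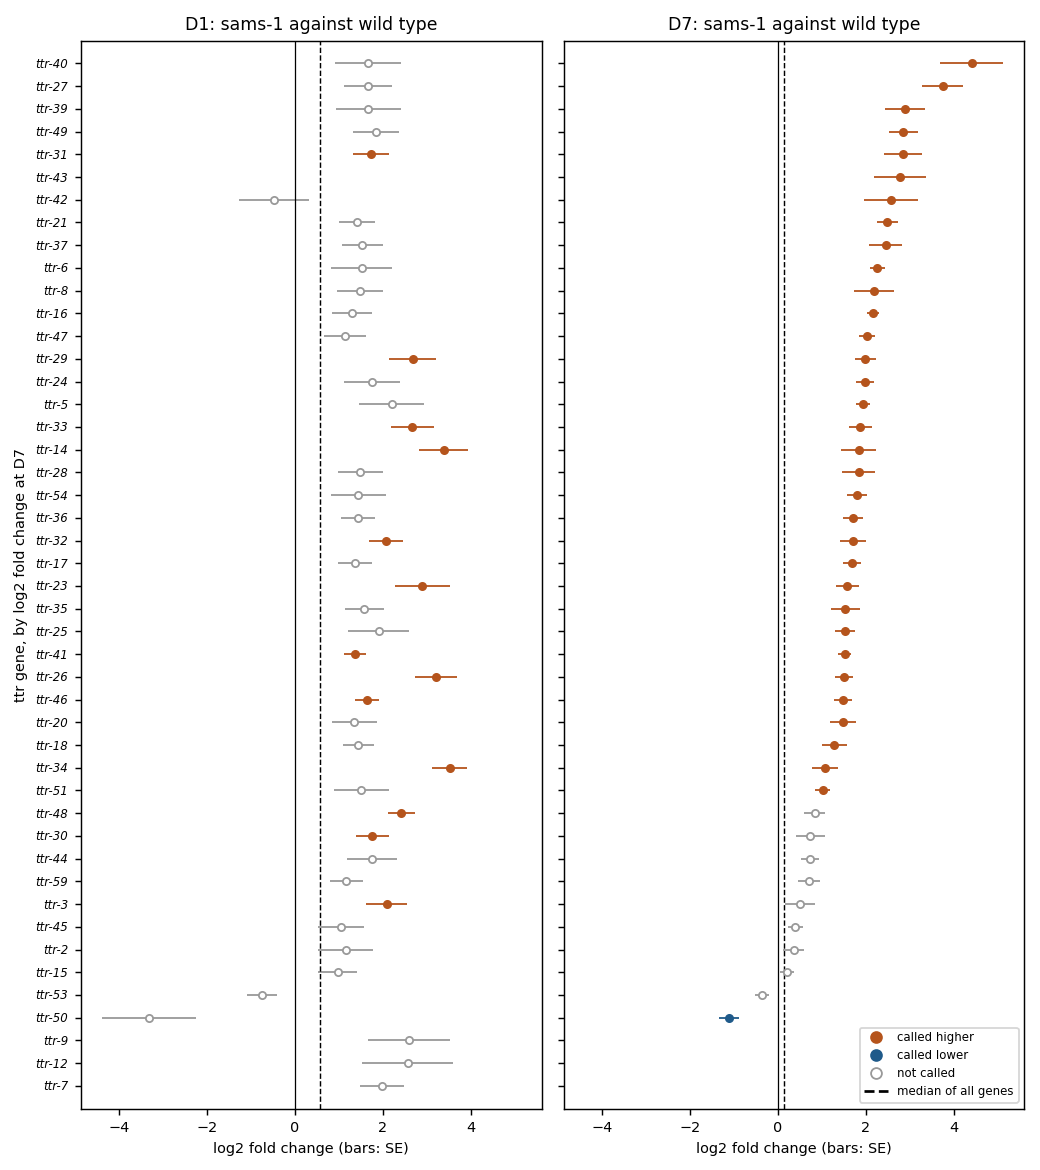
Log2 fold change (points) with its SE (bars) of *sams-1* against wild type for each tested ttr gene, at D1 (left) and D7 (right), ordered by the value at D7, with the dashed line at the median of all genes (0.58 at D1, 0.13 at D7). Filled points passed the test: 13 higher at D1, and 33 higher and 1 lower at D7, of which 1 and 16 stay higher when scaled to body wall muscle genes.

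The most abundant members differed less at D7 than the family did, with the exception of *ttr-16*. *ttr-16* measured 228, 178 and 231 TPM in wild type and 872, 948 and 919 TPM in *sams-1*, with a log2 fold change of 2.17 (adjusted p = 5.29e-06, SE 0.14, edgeR). Its exons overlap those of *lin-3* on the other strand, which was lower by -1.11 on the log2 scale (adjusted p = 7.02e-05, edgeR). Some expected counts of *ttr-16* were not whole numbers, so its reads may be split uncertainly. *ttr-51* was at 1343, 935 and 1197 TPM in wild type and at 1949, 2647 and 2141 TPM in *sams-1*, and passed narrowly with a log2 fold change of 1.02 (adjusted p = 0.000483, SE 0.17, edgeR). Its call was lost in 2 of the 6 fits that left out 1 library. *ttr-2* had overlapping groups, with 722, 596 and 730.5 TPM in wild type and 523, 943 and 1044 TPM in *sams-1*, and did not pass (log2 fold change 0.36, SE 0.23, adjusted p = 0.178, edgeR). The same held for *ttr-15* (0.22, SE 0.16, adjusted p = 0.23, edgeR) and *ttr-45* (0.40, SE 0.17, adjusted p = 0.0562, edgeR).

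At D1 none of these 5 members passed, with log2 fold changes of 1.5 for *ttr-51*, 1.3 for *ttr-16*, 1.15 for *ttr-2*, 1.04 for *ttr-45* and 0.97 for *ttr-15*, all of which turned negative when scaled to body wall muscle genes. Their spread at D1 was wide. In *sams-1*, *ttr-51* was at 578 TPM in replicate 1 but at 168 and 94.1 TPM in replicates 3 and 5, against 144.9, 69.7 and 81.5 TPM in wild type. *ttr-16* showed 1235, 408 and 441 TPM in *sams-1* and 409, 197 and 249.8 TPM in wild type. In both genes replicate 1 was the highest library of each genotype, and it was the highest of its group for 52.1% of the 48 members in wild type and for 47.9% in *sams-1*, beside 45.2% and 37.3% of all genes.

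*ttr-50* and *ttr-53* went the other way. *ttr-50*, on chromosome IV (11640047 to 11641015), was at 39.2, 52.4 and 32.7 TPM in wild type at D7 and at 17.3, 21.4 and 16.6 TPM in *sams-1*. The groups did not overlap, and the log2 fold change was -1.11 (adjusted p = 0.00151, SE 0.23, edgeR). At D1 it was at 29.1, 31.5 and 24.4 TPM in wild type and at 7.00, 1.44 and 0 TPM in *sams-1*, also without overlap, but the log2 fold change of -3.33 missed the threshold (adjusted p = 0.029, SE 1.07, edgeR). Its exons overlap those of *rbm-17* on the other strand, an RNA-binding protein gene that was lower by -1.84 at D1 (adjusted p = 0.00392, edgeR) and by -0.84 at D7 (adjusted p = 0.00143, edgeR). The call of *ttr-50* at D7 was lost without wild-type replicate 3, where the value was -0.96. *ttr-53*, on the same chromosome (10158038 to 10158974), measured 79.5, 96.6 and 83.1 TPM in wild type and 79.5, 30.1 and 41.5 TPM in *sams-1* at D1, and 89.2, 88.8 and 92.5 against 61.3, 79.7 and 61.9 TPM at D7. Its log2 fold changes of -0.75 and -0.36 were not called (adjusted p = 0.0891 and 0.0711, edgeR). Its neighbour *ttr-54*, 1267 bases away, had 1.44 at D1 and was called at D7 with 1.79.

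Neighbouring members had the direction of the family as a whole, in which 42 of 45 members were positive at D1 and 41 of 43 at D7. Of the 12 runs, 10 had at least 2 members tested at D1 and at D7, and the tested members had 1 sign in 9 of them at each age, the exception being *ttr-53* with *ttr-54*. At D7 every tested member was called higher in 6 of the 10 runs, and at D1 in 0. Levels still differed greatly within runs. *ttr-2* had a mean of 508 TPM over the 12 libraries, while *ttr-1*, which starts 73 bases beyond its end, had 1.95 TPM and *ttr-3* had 6.55 TPM. By chromosome, 14 of 15 tested members on V were called higher at D7, 8 of 11 on X, 6 of 9 on IV, 3 of 6 on III and 2 of 2 on II. Beside these stand 76.7% of all tested members and 33.4% of all genes called higher at D7. Shares of all genes by chromosome or by run were not computed, so these counts do not set any chromosome or run apart.

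With age in wild type, 9 of 48 members were called higher at D7 than at D1 (edgeR), beside 2.87% of all genes, and 1 was called lower, beside 2.92%. The median log2 change was 0.52 for the family and 0.11 for all genes, with 35 members positive and 13 negative. In CPM the ages did not overlap for 19 members that were higher at D7 and 4 that were lower, beside 25.8% and 14.7% of all genes. Scaled to body wall muscle genes, of which 7 of 25 were lower with age, 19 were higher and 0 lower (7 members were negative). Under that scaling 12.6% of all genes were called higher and 2.25% lower. The largest change was that of *ttr-23*, from 1.76, 1.49 and 0.65 TPM at D1 to 21.1, 22.9 and 28.2 TPM at D7, a log2 fold change of 4.10 (adjusted p = 0.00042, SE 0.51, edgeR). *ttr-45* rose from 64, 24.5 and 32.0 TPM to 646.6, 485 and 645.9 TPM, or 3.88 on the log2 scale (adjusted p = 0.000303, SE 0.45, edgeR). Its neighbour *ttr-51*, 1914 bases away on chromosome IV, went from 144.9, 69.7 and 81.5 TPM to the values at D7 given above, a log2 fold change of 3.55 (adjusted p = 0.00152, SE 0.54, edgeR). No library of one age reached the values of the other in these genes.

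*ttr-26* was the fourth, with 55.1, 38.9 and 44.0 TPM at D7 and a log2 fold change of 3.35 with age (adjusted p = 0.000245, SE 0.38, edgeR). *ttr-29*, *ttr-33*, *ttr-34*, *ttr-46* and *ttr-48* were also called higher, with log2 fold changes of 2.34, 1.92, 1.93, 1.46 and 1.75. *ttr-31* was the member that fell, from 13.1, 8.19 and 17.8 TPM to 3.46, 2.40 and 2.29 TPM (log2 fold change -2.21, SE 0.43, adjusted p = 0.00599, edgeR). Leaving out 1 library left 4 to 9 calls higher and 0 to 2 lower, beside 1.21% to 3.38% and 0.527% to 4.75% of all genes. Omitting any wild-type library other than D1 replicate 1 brought the higher calls to 4 or 5, and among the omissions of the 6 wild-type libraries the call of *ttr-31* held only without D1 replicate 3.

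**Figure D4:**
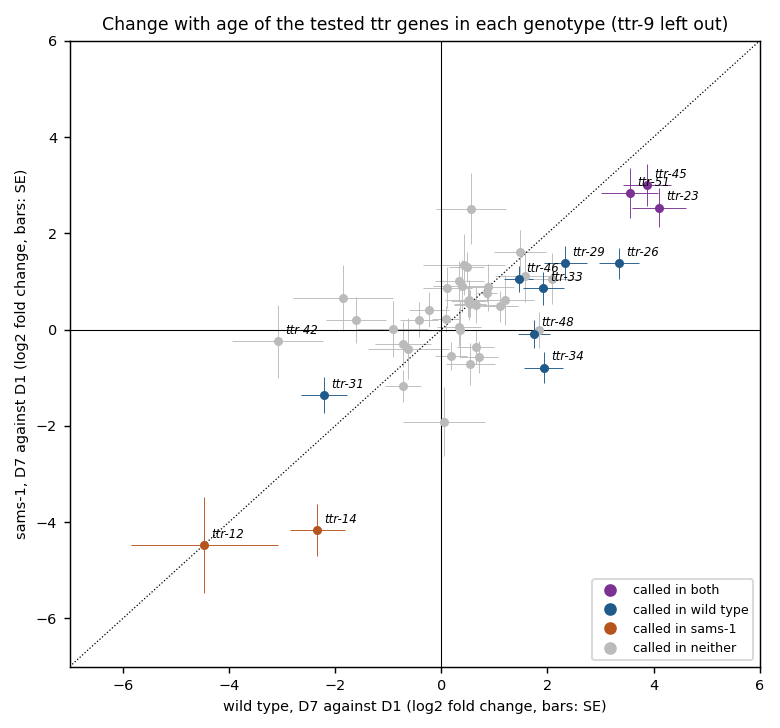
Log2 fold change from D1 to D7 in wild type (horizontal axis) and in *sams-1* (vertical axis) for the tested *ttr* genes, with SE bars and the dotted line of equal change. *ttr-9*, without reads at D7, is left out, and the 3 genes called higher in both genotypes (*ttr-23*, *ttr-45* and *ttr-51*) lie at the upper right.

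In *sams-1*, 3 of 48 members were called higher with age (edgeR), beside 2.78% of all genes, and 2 were called lower, beside 5.97%. The ages did not overlap in CPM for 13 members that were higher and 7 that were lower, beside 18.5% and 22.8% of all genes. DESeq2 called 9 higher and limma 10, beside 6.48% and 8.28% of all genes. Scaling to body wall muscle genes, of which 15 of 25 were lower with age in *sams-1* (median -1.80), gave 30 higher and 1 lower. Under that scaling 57.6% of all genes were called higher and 0.895% lower. The 3 higher members were among the 9 of wild type and made up 33.3% of them. *ttr-45* rose from 144.4, 52.8 and 48.0 TPM to 612, 726 and 921 TPM (log2 fold change 3.00, SE 0.43, adjusted p = 0.0015, edgeR). *ttr-51* changed by 2.83 (adjusted p = 0.00409, SE 0.52, edgeR) and *ttr-23* by 2.53 (adjusted p = 0.00242, SE 0.41, edgeR), the latter from 6.87, 15.2 and 7.17 TPM to 88.9, 50.5 and 67.3 TPM. In all 3 genes the ages did not overlap, but the call of *ttr-51* was lost in 4 of the 6 fits that left out 1 *sams-1* library.

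Of the members that fell in *sams-1*, *ttr-14* went from 108.9, 321 and 320.7 TPM at D1 to 12.3, 28.3 and 10.7 TPM at D7, a log2 fold change of -4.17 (adjusted p = 0.000788, SE 0.53, edgeR). In wild type the same gene went from 14.3, 26.3 and 36.8 TPM to 4.67, 4.40 and 5.7 TPM, and its log2 fold change of -2.33 missed the threshold (adjusted p = 0.0113, edgeR). *ttr-12* fell from 22.1, 24.8 and 14 TPM to 1.59, 1.27 and 0.65 TPM in *sams-1*, with counts of 73, 76 and 62 against 3, 4 and 1 (log2 fold change -4.47, SE 1.00, adjusted p = 0.00876, edgeR). In wild type its counts were 0, 7 and 20 at D1 and 0, 0 and 1 at D7. The family's median with age in *sams-1* was 0.50 against 0.02 for all genes, with 31 members positive and 17 negative. Without *sams-1* D1 replicate 1 there were 18 members higher and 2 lower, and without any of the other 5 *sams-1* libraries there were 2 or 3 higher and 1 lower, *ttr-14*. Over all genes, 16% were higher and 8.67% lower in the first case. In the other cases 1.03% to 1.93% were higher and 0.446% to 1.09% lower.

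The difference of the genotype effect between the ages was tested for 48 members, and none passed in either direction (edgeR), beside 0.0141% of all genes in each direction. At an unadjusted p under 0.05, 2 members were above 0 and 7 below, with the share of all genes not computed. DESeq2 called 2 lower, *ttr-34* and *ttr-48*, and limma called 0. DESeq2 called 1.3% of all genes lower. The member nearest to the threshold was *ttr-34*, whose genotype difference was smaller at D7, by -2.72 on the log2 scale (adjusted p = 0.0299, SE 0.49, edgeR). At D7 it measured 24.2, 25.9 and 25.3 TPM in wild type and 32.8, 71.4 and 47.4 TPM in *sams-1*, so the groups remained apart. *ttr-48* (-1.83, adjusted p = 0.0562, edgeR) and *ttr-26* (-1.97, adjusted p = 0.0653, edgeR) followed. Without *sams-1* D1 replicate 1, 4 members passed above 0 (*ttr-16*, *ttr-42*, *ttr-47* and *ttr-50*) and 2 below (*ttr-26* and *ttr-34*). In that fit 10.4% of all genes passed above 0 and 2.1% below. For most of the family these data do not show whether the genotype difference changed with age.

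*ttr-52*, the engulfment bridge, was almost absent. Its counts were 0, 3 and 0 in wild type at D1, 0, 1 and 3 in *sams-1* at D1, 0, 1 and 0 in wild type at D7 and 0, 0 and 2 in *sams-1* at D7, too few for a test. *ttr-11* had between 0 and 7 counts per library and was not tested either. Of the 24 listed genes of cell death and corpse clearance, 23 were tested, and their median log2 fold change in *sams-1* was -1.21 at D1 and -0.87 at D7. At an adjusted p under 0.01 with no threshold on the fold (edgeR), 0 were higher (2 at an unadjusted p under 0.05) and 10 lower at D1, beside 17.4% and 16.7% of all genes, and 2 were higher and 14 lower at D7, beside 35.6% and 29.4%. The members with the smallest p included *ced-5* and *ced-2*, parts of the engulfment signalling pathway, with -1.72 and -2.01 at D1, and *ced-3*, the cell death caspase, with -1.83 at D7. The summed TPM of this list was 969 to 1233 in wild type and 397 to 652 in *sams-1* at D1, and 1358 to 1426 and 619 to 760.5 at D7.

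The worm also has relatives of transthyretin that belong to the 5-hydroxyisourate hydrolases, enzymes of urate breakdown, and are not named ttr. Of this pair, R09H10.3 was tested and was higher in *sams-1* by 1.80 at D1 (adjusted p = 0.00538, SE 0.35, edgeR) and by 2.46 at D7 (adjusted p = 2.25e-05, SE 0.25, edgeR). ZK697.8 had too few reads for a test. The summed TPM of both was 22.5 to 37.3 in wild type and 73.5 to 118 in *sams-1* at D1, and 25.9 to 31.3 against 119.8 to 192 at D7.

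Marker lists of several tissues moved with the genotype, counted at an adjusted p under 0.01 with no threshold on the fold. By this rule 17.4% of all genes were higher and 16.7% lower at D1, and 35.6% and 29.4% at D7. Germ line markers were lower in *sams-1* at D1 for 19 of 26 genes (median -1.99) and at D7 for 25 of 26 (median -1.55), with a summed TPM of 4861 to 6360 in wild type against 671 to 1942 in *sams-1* at D1 and of 6237 to 6373 against 1813 to 2234 at D7. Oocyte markers had medians of -2.93 and -1.41, with 7 and 15 of 17 lower, and summed to 8918 to 14252 against 525 to 4938 TPM at D1 and 16249 to 16319 against 6350 to 9942 TPM at D7. Lists of somatic tissues went the other way. Intestinal markers were higher for 13 of 18 genes at each age (medians 2.43 and 2.17), at 1640 to 2190 against 3936 to 6620 TPM at D1 and 3539 to 4416 against 10845 to 13243 TPM at D7.

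Body wall muscle markers were higher for 13 of 25 genes at D1 (median 1.61) and for 20 at D7 with 1 lower (median 1.22), with 1564 to 3568 against 4861 to 10204 TPM and 909 to 1236 against 1713 to 2431 TPM. Epidermal and cuticle markers had medians of 3.9 and 1.52, with 12 and 13 of 20 higher and 1 and 2 lower, at 3101 to 6553 against 9626 to 16866 TPM and 411 to 487 against 977 to 1656 TPM. The lower genes were *lin-26*, at -1.18 at D1 and -1.38 at D7, and *nhr-23* at D7, at -1.51. At D1 the largest rises were those of *rol-6* (7.80) and *bli-2* (7.55), while *col-19* (0.50) and *col-124* (0.10) were not called. For neurons, 11 and 12 of 16 markers were higher (medians 1.78 and 1.95), at 330.2 to 367 against 581 to 714 TPM and 366 to 374 against 709.8 to 951 TPM. Pharyngeal markers were higher for 5 of 13 tested genes at D1 and for 12 of 12 at D7 (medians 1.80 and 3.32), at 89.2 to 218 against 372 to 602 TPM and 32.8 to 44.4 against 177 to 337 TPM. Every matched marker was above 0 TPM in at least 1 library.

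Sperm markers were not called at D1 (0 of 16 by edgeR, with 2 higher at an unadjusted p under 0.05 and a median of 0.84) and were higher for 10 of 11 at D7 (median 3.61), at 139.8 to 3203 against 1827 to 2477 TPM and 6.94 to 29.0 against 130.1 to 327 TPM. Glial markers were higher for 1 of 6 at D1 and, at D7, higher for 1 and lower for 1 of 7 (medians 1.02 and 0.71), at 43.1 to 62.2 against 42.8 to 119.8 TPM and 62.9 to 70.2 against 39.1 to 68.3 TPM. Of the 15 matched genes listed as embryonic, only 2 were tested at D1 and 3 at D7, and 2 were higher at each age. The list summed to 7.85 to 19.8 against 21.8 to 31.1 TPM and 19.4 to 24.4 against 38.4 to 70.7 TPM. The higher genes were *elt-7* and *nhr-57*, while *skr-10* had -0.74 at D7 without a call. Whether *elt-7* and *nhr-57* are specific to embryos was not tested, so this list does not show more embryonic RNA. Coelomocyte markers, with 3 tested, had medians of 0.19 and 0.04 and 1 higher call, at D7, and summed to 175 to 222 against 140.3 to 155.7 TPM and 209 to 214 against 173.6 to 184 TPM. That call was *ceh-34*, which is also in the pharyngeal list. With age, sperm markers were lower for 11 of 16 genes in wild type and for 5 in *sams-1* (medians -5.97 and -3.40), and epidermal and cuticle markers for 2 and 7 of 20 (medians -0.94 and -3.33). Pharyngeal markers were lower with age for 3 and 2 of 14 (medians -2.09 and -1.06), while intestinal markers were higher for 4 and 1 of 18 and lower for 1 in each genotype (medians 0.52 and 0.16). By the same rule, 2.94% of all genes were higher and 2.94% lower with age in wild type. In *sams-1* these shares were 3.3% and 6.36%. The part of these tissue shifts in the *ttr* differences was not tested.

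**Figure D5:**
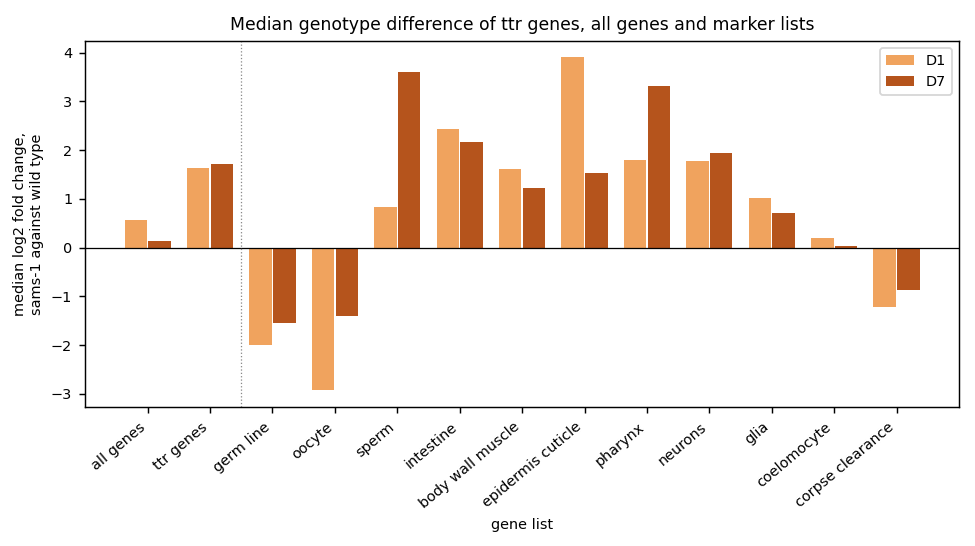
Median log2 fold change of *sams-1* against wild type at D1 and D7 (bars) over all genes, the *ttr* genes and 11 marker lists. The *ttr* medians of 1.63 and 1.71 lie among those of intestine, muscle, pharynx and neurons, while germ line and oocyte lists lie below 0.

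When the libraries were scaled to the 25 body wall muscle genes, the median log2 fold change at D1 moved to 0.07 for the family and to -0.95 for all genes, with 23 members positive and 22 negative. Of the 13 calls only *ttr-14* remained, while *ttr-50* and *ttr-53* were called lower, beside 4.04% of all genes higher and 37.6% lower. At D7 the medians were 0.85 and -0.77, and 16 members were higher and 2 lower, again *ttr-50* and *ttr-53*, beside 18% and 43.5% of all genes. *ttr-40*, *ttr-27*, *ttr-39*, *ttr-49*, *ttr-31*, *ttr-42*, *ttr-43*, *ttr-21* and *ttr-16* were among those that stayed higher. Of the 33 members called at D7, 24 were higher under every alternative other than muscle scaling, those that leave out a library included, and 13 under every one.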

How the data were processed

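Total RNA of whole animals was measured in 12 libraries, 3 in each of 4 groups taken from the sample labels. Per the submitters' processing notes, the authors used Trimmomatic 0.39 for trimming, STAR for alignment and RSEM 1.3.3 for quantification, with the ws245 annotation named in the study's methods. The deposited values are an expected count per gene (estimated counts, 1.85% to 2.41% of them not whole), TPM, which the authors' RSEM run corrected for effective transcript length, and FPKM, which is deposited beside TPM and proportional to it within a library. For their own tests the authors used DESeq2 1.38. The labels name one sequencing provider and the methods another for triplicates, so the provider is left unnamed. Not given in the sources used here are the counting strand, the read totals and the share of reads that mapped.

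Symbols came from a table of WormBase identifiers, and gene places from Ensembl release 115 (WBcel235), which holds 46917 of the 46925 identifiers. Expected counts were rounded and tested over all genes by the quasi-likelihood F test of edgeR 4.0.16 (R 4.3.3), with low genes removed by filterByExpr and TMM scaling, on the 6 libraries of each age (4 residual degrees of freedom) and, for age and the interaction, on all 12 (8 residual degrees of freedom). Adjustment was by Benjamini-Hochberg over all genes tested. The SE given with edgeR values, also in the figures, is the absolute log2 fold change divided by the square root of F. Called genes had an adjusted p below 0.01 and a change of 2-fold or more. The edgeR fits were also run on simulated counts, whose fixed spread was below that found at D1 and over all 12 libraries. That run therefore cannot show how firm the calls are in the real libraries. Limma 3.58.1 on log2(TPM + 1), DESeq2 1.42.0, other scalings, filters and thresholds, a replicate block, all libraries in 1 fit and leaving out each library were tried as alternatives. Tables were made with Python 3.11.15 and pandas 2.3.3. Intervals were not computed, since all values compared have replicates.

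Members were all genes of the family. Named with statistics were up to 8 called members in each direction with the largest fold changes at each age, up to 4 with age and up to 5 in the interaction, the 5 most abundant, and *ttr-52*, *ttr-11* and *ttr-33*. *ttr-53*, *ttr-54*, *ttr-4* and members quoted for position or low counts were named after their values were seen. The lists of germ line, oocyte, sperm, embryo, intestine, muscle, epidermis, pharynx, neurons, glia, coelomocytes, corpse clearance and hydrolase genes were written from general knowledge. The members, lists and tests were chosen with earlier results of these data known.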

Additional observations from a re-analysis of the deposited data

How the results depend on the processing

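Directions of the named members held under nearly all alternatives: 570 values kept their direction and side of the threshold, 93 kept the direction but no longer passed, 3 newly passed, and 8 reversed. The tally includes alternatives that changed only the threshold on the reported fit, where no direction could change. Most named members were also chosen for large fold changes in that fit. All 8 reversals came from scaling to body wall muscle genes, at D1 for *ttr-51* (-0.11), *ttr-15* (-0.52), *ttr-16* (-0.28), *ttr-2* (-0.25) and *ttr-45* (-0.47), and at D7 for *ttr-15* (-0.64), *ttr-2* (-0.48) and *ttr-45* (-0.47), none of which was called in the comparison where it reversed. This scaling also gave 1 member higher and 2 lower at D1, 16 higher and 2 lower at D7, 19 higher and 0 lower with age in wild type, and 30 higher and 1 lower with age in sams-1. The shares of all genes were 4.04% and 37.6% at D1 and 18% and 43.5% at D7. With age they were 12.6% and 2.25% in wild type and 57.6% and 0.895% in sams-1. Muscle scaling moved the median of all genes at D1 from 0.58 to -0.95, upper-quartile factors to 1.16, library totals to 0.76 and RLE factors to 0.34. The cause of the changes below was not tested.

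At D1, 31 members were higher at an adjusted p under 0.05 and 31 with all 12 libraries in 1 fit, 22 with upper-quartile factors and 6 with no filter, and 1 was lower at that p, with DESeq2, with limma and with all 12 libraries. In that order, the shares of all genes called higher were 33.4%, 32%, 26.4% and 8.08%. Those called lower were 25.2%, 27.5%, 17.5% and 18.7%. At D7, 0 were lower with upper-quartile factors, library totals or all 12 libraries, beside 5.06%, 8.69% and 13.6% of all genes. With age in wild type, 4 were lower at an adjusted p under 0.05 and with DESeq2, and 2 with RLE factors, no filter or a minimum of 1 CPM. The shares of all genes called lower were, in that order, 7.81%, 8.24%, 3.47%, 3.59% and 3.02%. With age in sams-1, 9 were higher at an adjusted p under 0.05 and with DESeq2, 10 with limma and 7 with RLE factors, library totals or a minimum of 1 CPM, while 5 were lower at that p and 1 with RLE factors, upper-quartile factors, library totals, a minimum of 1 CPM or the replicate block. In that order, the shares of all genes called higher were 6.55%, 6.48%, 8.28%, 3.44%, 4.4% and 4.52%. Those called lower were 15.6%, 4.36%, 5.28%, 3.49%, 3.15% and 3.44%. In the interaction 1 was lower at an adjusted p under 0.05 and 2 with DESeq2, beside 0.754% and 1.3% of all genes. Leaving out 1 library gave 0 to 11 higher and 0 to 2 lower at D1, 27 to 33 higher and 0 to 1 lower at D7, 4 to 9 and 0 to 2 with age in wild type, 2 to 18 and 1 to 2 with age in sams-1, and 0 to 4 and 0 to 2 in the interaction. Over all genes, 0% to 19.6% were higher and 0% to 25.7% lower at D1. At D7 the shares were 26.8% to 35% and 15.5% to 18%. With age they were 1.21% to 3.38% and 0.527% to 4.75% in wild type. In sams-1 they were 1.03% to 16% and 0.446% to 8.67%, and in the interaction 0% to 10.4% and 0.00671% to 2.1%. With 2 libraries left in a group, the fit pools the spread over groups.

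Same-numbered libraries of the genotypes correlated in their deviations from the group means at 0.196, 0.080 and 0.134 at D1. The D7 values were -0.003, 0.045 and 0.029. Correlations this small cannot decide whether same-numbered libraries were prepared together. With the replicate block there were 11 higher at D1 (6 of them among the 13), 33 higher and 1 lower at D7, 8 and 1 with age in wild type, 4 and 1 with age in sams-1, and 0 in either direction in the interaction. Over all genes, 11.8% were higher at D1, and 33% were higher and 16.8% lower at D7. With age the shares were 2.06% and 1.47% in wild type and 1.94% and 3.44% in sams-1. Depth limits the 10 members without a test, which had few or no reads in any library.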
